A study of Mus musculus with 6 samples.

Results

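The 6 genes described here lie close together on mouse chromosome 13, from Nnt to Ccl28, over 318907 bases of the GRCm38 assembly. They are Nnt, Paip1, 4833420G17Rik, Gm7120, Gm21967 and Ccl28, and were picked by name and position with the result of the genotype comparison already known. They make up 6 of the 21999 genes in the table, and 5 of the 6 passed the filter on low counts that left 13609 genes. Because the choice used the difference between genotypes, that difference is given below as a description, without a test of the members. Calls made over all genes that include members lend it no support.

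RNA was sequenced from cultured lung microvascular endothelial cells (LMVEC) of mice with and without Ptprz1, the gene for a receptor-type tyrosine phosphatase. There were 3 Ptprz1+/+ and 3 Ptprz1-/- libraries, 1 for each fresh isolation, and each isolation pooled 2 to 5 mice between 3 and 8 weeks old. Both groups carried the strain label SV129/B6, were untreated, and were sorted with CD31 beads once the plates were confluent. The labels do not say which mice went into which isolation, or whether Ptprz1+/+ and Ptprz1-/- animals were littermates, so genotype and the line background of each colony cannot be told apart in these libraries.

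Nnt encodes nicotinamide nucleotide transhydrogenase, an enzyme of the inner mitochondrial membrane that uses the proton gradient to make NADPH, which in turn feeds the removal of peroxides. The C57BL/6J line, on which the mouse reference genome is built, lacks several exons of this gene, and other laboratory lines have them. DNA near such a locus is inherited together with it, and mixed SV129 and C57BL/6 stocks can differ there. Paip1, its neighbour, encodes a partner of the poly(A)-binding protein that promotes translation initiation, and Ccl28 encodes a chemokine of mucosal surfaces whose receptors are CCR10 and CCR3. Gm7120 is named Tmem267 in the GENCODE M21 annotation and encodes a transmembrane protein, and the role of 4833420G17Rik is not well established.

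The coding sequence of Gm7120 and Gm21967 is shown first, because the reads of these genes cannot be separated without knowing how they were counted. GRCm38 holds both coding exons of Tmem267 a second time further along the same strand, and that second copy is Gm21967. M21 has no entry for Gm21967 and places the exons of both copies in Tmem267. Gm7120 and Gm21967 are thus separate genes in the table but not in M21. The first coding exon, chr13:119492635-119493015, has 0 differences over 381 bases from chr13:119606650-119607030. The second, chr13:119495135-119495505, has 0 differences over 371 bases from chr13:119609192-119609562. The 3809 bases of Gm21967 lie wholly within the span of Gm7120, which runs from 119487941 to 119610458. The first 120 coding bases, with the start codon in capitals, read the same at chr13:119492635-119492754 and at chr13:119606650-119606769 on the plus strand, as read from GRCm38.

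Gm7120 and Gm21967 coding start: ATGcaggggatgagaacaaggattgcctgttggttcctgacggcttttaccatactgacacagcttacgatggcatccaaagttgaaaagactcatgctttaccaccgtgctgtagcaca

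A read that lies within these exons fits both places equally well, and whether such reads were dropped, split or counted more than once is not given in the sources used here. The counts of Gm7120 and Gm21967 are therefore uncertain as single genes and are not independent of each other. Among the other members, 4833420G17Rik shares 524 exon bases with the antisense gene Gm9752, and Gm7120 shares 162 with the antisense gene 3110070M22Rik. No use of strand in the counting is stated, so reads of a gene and of its antisense partner may be mixed. M21 also lists a second Nnt gene that shares 3339 exon bases with Nnt and is not a row of the table, and the gene-level table cannot tell the exons of Nnt apart.

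RefSeq promoter entries on GRCm38.p6 matched 4 of the 6 members. The 200 bases before the start are shown for the member with the largest change among those above 10 counts in every library, 4833420G17Rik, for Paip1, which lies next to it and differed little, and for Ccl28. Capitals mark a match, on either strand, to the ETS motif CCGGAAG or to the GC box GGGCGG. The windows are chr13:119462559-119462758, chr13:119428400-119428599 and chr13:119623619-119623818, all on the plus strand.

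4833420G17Rik: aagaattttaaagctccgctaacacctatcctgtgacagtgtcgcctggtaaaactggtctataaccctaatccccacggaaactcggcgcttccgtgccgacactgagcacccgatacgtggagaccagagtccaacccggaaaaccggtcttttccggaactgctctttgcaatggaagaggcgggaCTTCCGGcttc

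Paip1: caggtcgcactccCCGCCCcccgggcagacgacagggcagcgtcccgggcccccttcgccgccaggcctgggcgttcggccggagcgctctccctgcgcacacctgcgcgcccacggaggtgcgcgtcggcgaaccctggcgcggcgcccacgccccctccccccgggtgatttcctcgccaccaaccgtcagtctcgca

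Ccl28: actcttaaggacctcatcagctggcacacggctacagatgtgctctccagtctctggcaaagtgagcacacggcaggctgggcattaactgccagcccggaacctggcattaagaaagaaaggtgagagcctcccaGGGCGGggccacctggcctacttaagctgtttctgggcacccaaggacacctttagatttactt

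The window of 4833420G17Rik held 1 ETS motif and 14 CpG dinucleotides, and 6.29% of 32851 RefSeq promoter windows of that length hold this motif. Paip1 and Ccl28 each held 1 GC box, which 31% of the windows hold. CpG dinucleotides numbered 28 in Paip1 and 4 in Ccl28, beside a median of 5 over all windows. RefSeq gives Paip1 a second start, whose window, chr13:119428702-119428901, is not shown and held 4 GC boxes and 37 CpG dinucleotides. No window among the 3 shown held the CCAAT box CCAAT, the TATA box TATAAA or the cyclic AMP response element TGACGTCA, found in 29.3%, 9.96% and 1.47% of windows. A match is a run of letters and no evidence of a bound factor.

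Depth was similar in all libraries, between 14496881 and 17709663 counted reads. Counts of Ptprz1, the gene targeted in these mice, overlapped between the groups, with 197, 1837 and 508 reads in Ptprz1+/+ and 1138, 1320 and 895 in Ptprz1-/- replicates 1, 2 and 3. Which exons these reads came from cannot be seen at the gene level, so the groups below are the libraries as labelled. All 8 endothelial markers, Pecam1 and Cdh5 among them, were detected, but their summed level was 86.0 to 599 CPM (reads scaled to a common library size, after TMM scaling) in Ptprz1+/+ and 73.2 to 246 CPM in Ptprz1-/-. Fibroblast markers summed to 17385 to 25263 and 10541 to 26959 CPM, and mesothelial markers to 50.8 to 153 and 84.0 to 1079 CPM. Smooth muscle and pericyte markers summed to 799 to 4270 and 1479 to 4095 CPM. Replicate 3 had the highest endothelial sum in each genotype. In replicates 1 and 2 most of that sum was Eng, at 101 and 59.4 CPM in Ptprz1+/+ and 59.6 and 115 CPM in Ptprz1-/-. Cdh5 was at 8.70, 14.3 and 199 CPM in Ptprz1+/+ and 3.60, 7.41 and 61.3 CPM in Ptprz1-/- replicates 1, 2 and 3. The part of cell makeup in the values below was not tested, and fewer cells of a type and less RNA per cell cannot be told apart in bulk RNA.

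Nnt and Paip1, the most abundant members, differed little between the genotypes. Nnt (ENSMUSG00000025453, chr13:119335448-119408997, minus strand) had 870, 1144 and 785 reads in Ptprz1+/+ replicates 1, 2 and 3 and 1029, 1042 and 962 in Ptprz1-/- replicates 1, 2 and 3. Scaled to depth, these were 52.6, 62.9 and 49.5 CPM against 63.8, 71.5 and 63.5 CPM. Every Ptprz1-/- library lay above every Ptprz1+/+ library, but the lowest of the former and the highest of the latter were close. Mean Nnt levels were 55.0 ± 7.004 CPM and 66.3 ± 4.52 CPM (SD, n = 3), a log2 fold change of 0.27 with a standard error of 0.13. Neither group was near 0, so transcripts assigned to Nnt were present in every isolation.

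Paip1 (ENSMUSG00000025451, chr13:119428601-119458218, plus strand) had 1291, 1603 and 1254 reads in the Ptprz1+/+ libraries and 1168, 1073 and 981 in the Ptprz1-/- libraries. Its levels were 78.0, 88.1 and 79.1 CPM against 72.5, 73.6 and 64.8 CPM. Here the order was the other way round, with the Ptprz1-/- libraries lower and no overlap. The means were 81.7 ± 5.55 and 70.3 ± 4.80 CPM (SD, n = 3), and the log2 fold change was -0.22 with a standard error of 0.12. Nnt and Paip1 thus lay on opposite sides of 0 by similar amounts.

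4833420G17Rik, the next gene along, was lower in all Ptprz1-/- libraries by a margin wider than the spread within either group. This gene (ENSMUSG00000062822, chr13:119462759-119486117, plus strand) had 237, 279 and 266 reads in Ptprz1+/+ and 101, 50 and 92 in Ptprz1-/- replicates 1, 2 and 3. The levels were 14.3, 15.3 and 16.8 CPM against 6.26, 3.43 and 6.08 CPM. All Ptprz1+/+ libraries sat close together, and Ptprz1-/- replicate 2 was the lowest of the 6. Means were 15.5 ± 1.24 and 5.26 ± 1.58 CPM (SD, n = 3), so that Ptprz1-/- libraries held 34.0% of the Ptprz1+/+ level. The log2 fold change was -1.56 with a standard error of 0.27, rank 169 from the lowest among 13609 genes. Summed over each group, the ratio of reads per depth was 0.343, with a 95% exact binomial interval of 0.296 to 0.397 that covers counting error only.

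**Figure D1:**
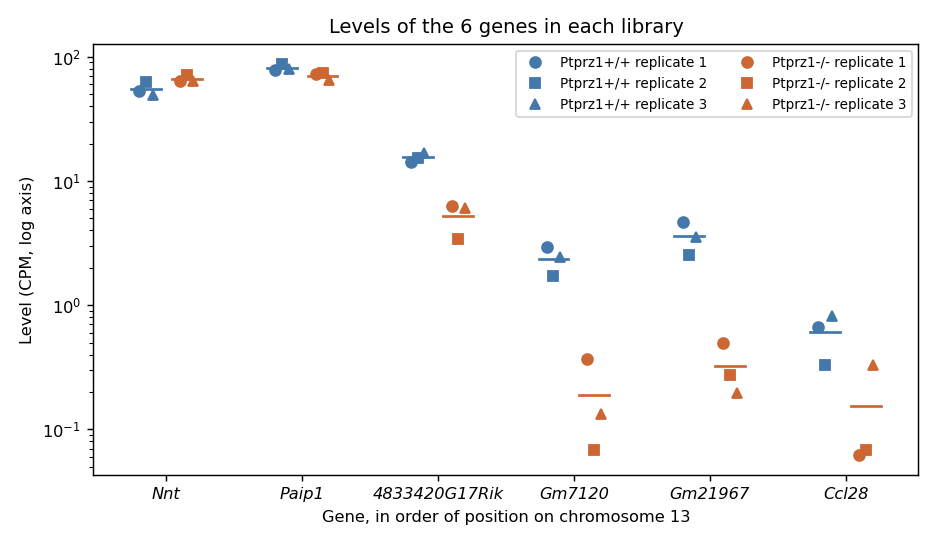
Level of each member in CPM, on a log axis, in the 3 Ptprz1+/+ (blue) and 3 Ptprz1-/- (orange) libraries, with symbols for the replicate number and a line at each group's mean. Nnt and Paip1 sit at similar heights in both genotypes, whereas 4833420G17Rik, Gm7120 and Gm21967 sit lower in every Ptprz1-/- library, and Ccl28 overlaps.

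Gm7120 and Gm21967 showed the widest gap, with few reads left in the Ptprz1-/- libraries. Gm7120 (ENSMUSG00000074634, plus strand) had 49, 31 and 39 reads in Ptprz1+/+ and 6, 1 and 2 in Ptprz1-/- replicates 1, 2 and 3. That is 2.96, 1.70 and 2.46 CPM against 0.372, 0.0686 and 0.132 CPM. The highest Ptprz1-/- library was far below the lowest Ptprz1+/+ library. Mean levels were 2.37 ± 0.632 and 0.191 ± 0.160 CPM (SD, n = 3), 12.4-fold lower in Ptprz1-/-, with a log2 fold change of -3.56 and a standard error of 0.61. The ratio of summed reads per depth was 0.0835, with an interval of 0.0373 to 0.164. The size of this difference depended on Ptprz1-/- replicate 1, which had most of the remaining reads: without it, the log2 fold change was -4.45.

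Gm21967 (ENSMUSG00000094114, chr13:119606650-119610458, plus strand) had 78, 46 and 56 reads in Ptprz1+/+ and 8, 4 and 3 in Ptprz1-/- libraries. In CPM these were 4.71, 2.53 and 3.53 against 0.496, 0.275 and 0.198. As for Gm7120, Ptprz1+/+ replicate 1 was the highest and Ptprz1+/+ replicate 2 the lowest of its group, and the groups did not overlap. The means were 3.59 ± 1.09 and 0.323 ± 0.155 CPM (SD, n = 3), 11.1-fold lower in Ptprz1-/-, with a log2 fold change of -3.44 and a standard error of 0.48. The ratio of summed reads per depth was 0.0920, with an interval of 0.0504 to 0.156. Among the 13609 genes, the log2 fold changes of Gm7120 and Gm21967, whose counts are not independent, ranked 3 and 5 from the lowest.

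The pair kept a similar proportion from library to library where reads were many. Per length, in FPKM (reads per kilobase of gene, scaled to the library total), Gm7120 was 34.1%, 36.6% and 37.8% of Gm21967 in Ptprz1+/+ replicates 1, 2 and 3. In Ptprz1-/- it was 40.7%, 13.6% and 36.2%, where the lowest value rests on 1 read of Gm7120. The proportion does not separate the copies, whose coding exons are the same over the bases compared.

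**Figure D2:**
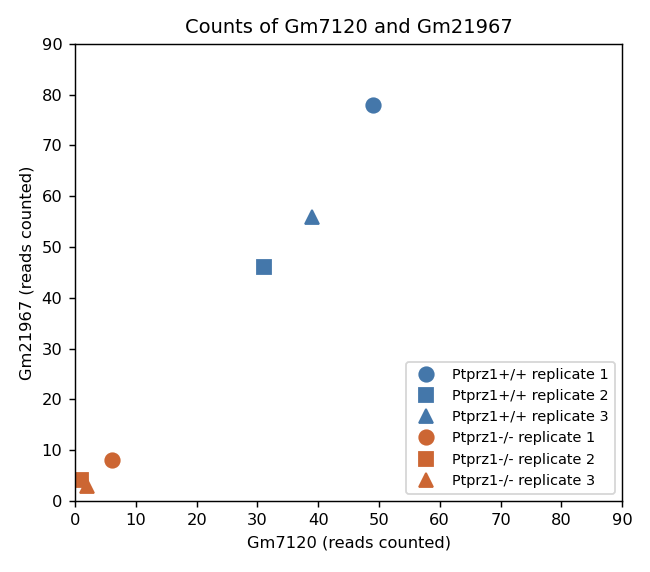
Reads counted for Gm7120 (horizontal axis) and Gm21967 (vertical axis) in each of the 6 libraries, blue for Ptprz1+/+ and orange for Ptprz1-/-, with symbols for the replicate number. The Ptprz1+/+ libraries lie between 31 and 49 reads of Gm7120 and 46 and 78 of Gm21967, and the Ptprz1-/- libraries at no more than 6 and 8.

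Ccl28 was near the limit of detection in both genotypes. Ccl28 (ENSMUSG00000074715, chr13:119623819-119654354, plus strand) had 11, 6 and 13 reads in Ptprz1+/+ and 1, 1 and 5 in Ptprz1-/- replicates 1, 2 and 3, and it did not pass the filter on low counts. Mean levels were 0.605 ± 0.251 and 0.154 ± 0.153 CPM (SD, n = 3). The groups met at 0.330 CPM, the level of Ptprz1+/+ replicate 2 and of Ptprz1-/- replicate 3. Its ratio of summed reads per depth was 0.258, with an interval of 0.0955 to 0.599 that covers counting error only. The log2 fold change with no filter was -1.92. With the filter in place, Ccl28 passed in some fits that left out 1 library, at -3.07 without Ptprz1-/- replicate 3 and -1.55 without Ptprz1-/- replicate 1, where both the filter and the libraries differ from the fit above.

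Over all genes, few or no calls were made. The quasi-likelihood test of edgeR, with Benjamini-Hochberg adjustment at 0.05, called 0 of 13609 genes (0%), members included, and 366 had an unadjusted p under the same threshold. DESeq2 called 30, of which 20 were lower in Ptprz1-/- (0.147% of the genes tested), and 4833420G17Rik, Gm7120 and Gm21967 were among those 20. Of the 5 members tested, 4 had groups that did not overlap and were lower in Ptprz1-/-, beside 3.73% of all genes, and 1, Nnt, was higher, beside 3.55%. In either direction 991 genes, or 7.28%, did not overlap. The members were chosen on this contrast, so these calls and shares describe them and lend them no support.

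Between genes, levels per length fell in the same order in both genotypes, Paip1 first and Ccl28 last. In Ptprz1+/+ libraries mean FPKM was 31.8 for Paip1, 15.8 for Nnt, 5.96 for 4833420G17Rik, 2.15 for Gm21967, 0.773 for Gm7120 and 0.159 for Ccl28, and no neighbours in that order overlapped across the 3 libraries. In Ptprz1-/- libraries the means were 27.7, 19.2, 2.08, 0.198, 0.0645 and 0.0423 FPKM. There the ranges of Gm21967 and Gm7120 touched, at 0.126 and 0.127 FPKM, and those of Gm7120 and Ccl28 overlapped.

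Relative to Paip1 in the same library, a measure that needs no scaling between libraries, the members kept these directions. Paip1 is itself a member and was lower in every Ptprz1-/- library, which by construction raises the ratios in Ptprz1-/-. 4833420G17Rik stood at 18.2%, 17.2% and 21.02% of the Paip1 FPKM in Ptprz1+/+ and at 8.57%, 4.62% and 9.29% in Ptprz1-/- replicates 1, 2 and 3. For Gm21967 the shares were 9.35%, 4.44% and 6.91% against 1.06%, 0.577% and 0.473%. Those of Gm7120 were 3.19%, 1.63% and 2.61% against 0.432%, 0.0784% and 0.171%. In each of these genes the genotypes stayed apart. Nnt stood at 49.6%, 52.6% and 46.1% of Paip1 in Ptprz1+/+ and at 64.9%, 71.5% and 72.2% in Ptprz1-/-, a gap to which the lower Paip1 level contributes. Ccl28, at 0.256% to 0.708% against 0.0585% to 0.348%, overlapped.

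**Figure D3:**
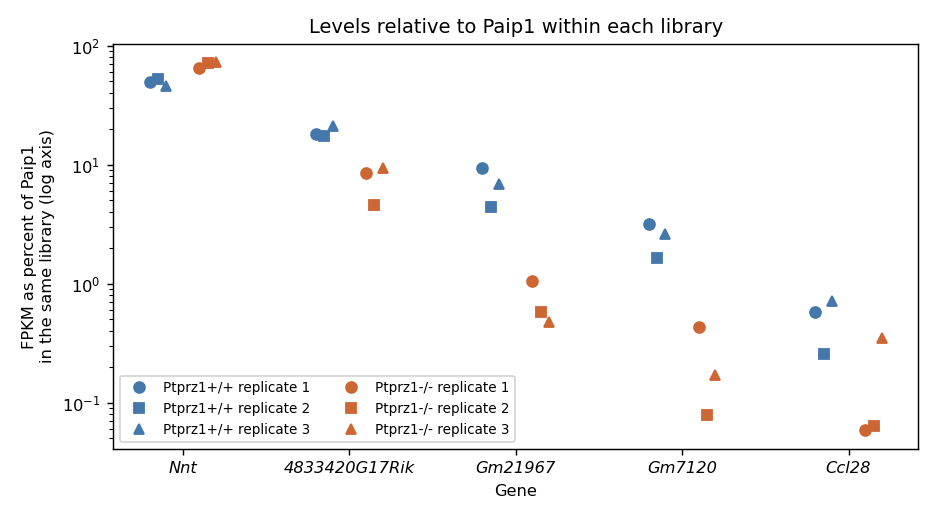
FPKM of 5 members as a percent of the Paip1 FPKM in the same library, on a log axis, for the 3 Ptprz1+/+ (blue) and 3 Ptprz1-/- (orange) libraries. Nnt is higher and 4833420G17Rik, Gm21967 and Gm7120 are lower in every Ptprz1-/- library, and Ccl28 overlaps.

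The next question was how far along the chromosome the low levels reached. Within 2 Mb of the midpoint of Nnt the table holds 14 further genes, of which 8 were tested. Neither edgeR nor DESeq2 called any of the 8 (0 had an unadjusted p under 0.05 in edgeR), 5 had a log2 fold change above 0 and 3 below it, and their median was 0.21, beside -0.0047 over all genes. No gene among the 8 had groups that did not overlap, beside 7.28% of all genes, but the overlap of Gm9752, described below, was very narrow. Beyond Ccl28, the nearest was Hmgcs1, an enzyme of cholesterol synthesis, at 254 ± 110 CPM in Ptprz1+/+ and 297 ± 86.6 CPM in Ptprz1-/- (SD, n = 3), a log2 fold change of 0.23 with a standard error of 0.37. After it came Nim1k at 0.34 and the zinc finger gene Zfp131 at -0.15, with standard errors of 0.33 and 0.24, and the pseudogene Gm20900 at 0.43. The signs of Hmgcs1 and Zfp131 were not stable, at -0.06 and 0.06 without Ptprz1+/+ replicate 1.

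On the other side of Nnt, Fgf10, a growth factor of lung development, had a log2 fold change of 0.65 with a standard error of 0.55, which was -0.20 without Ptprz1-/- replicate 2, its highest library. Mrps30, a mitochondrial ribosomal protein gene, was at 0.20 with a standard error of 0.20. Of the 8, Gm9752 was the lowest, with 26, 12 and 15 reads in Ptprz1+/+ and 8, 5 and 10 in Ptprz1-/- and a log2 fold change of -1.07 with a standard error of 0.49. Gm9752 is the antisense gene that shares exon bases with 4833420G17Rik. Its reads did not overlap between the groups. In CPM they did so only narrowly, at 0.660 in Ptprz1+/+ replicate 2 and 0.661 in Ptprz1-/- replicate 3. The other antisense gene, 3110070M22Rik, had 8, 13 and 1 reads against 2, 1 and 6 and was not tested. Within the window, the tested genes lower by more than 1 on the log2 scale were the members 4833420G17Rik, Gm7120 and Gm21967, and Gm9752. Ccl28, at -1.92 with no filter, was not tested. The starts of Gm9752 and 3110070M22Rik lie between those of 4833420G17Rik and Gm7120.

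**Figure D4:**
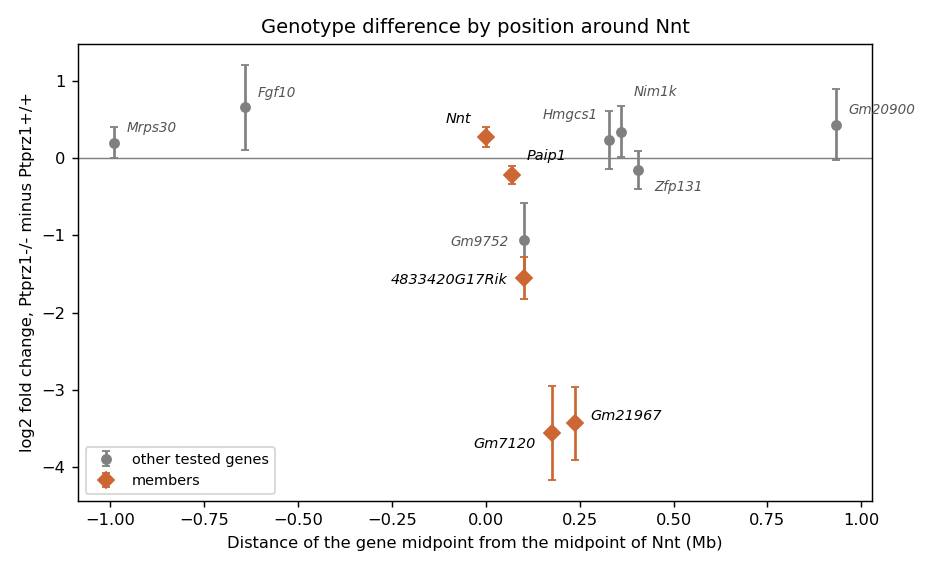
Log2 fold change (Ptprz1-/- minus Ptprz1+/+, points) and its standard error (bars) of the tested members (orange) and of the 7 other tested genes within 1 Mb (grey), by distance of the gene midpoint from that of Nnt in Mb. Nnt and Paip1 lie near 0, 4833420G17Rik at -1.56, and Gm7120 and Gm21967 at -3.56 and -3.44. Of the other genes, Gm9752 lies at -1.07, and Hmgcs1, Nim1k and Zfp131, beyond the members, near 0 again.

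Further out, Emb, which encodes the cell adhesion protein embigin, lay 2.12 Mb before Nnt and was the only one of the 10 nearest tested genes whose groups did not overlap. It had 1208, 1637 and 702 reads in Ptprz1+/+ and 261, 388 and 606 in Ptprz1-/-, and a log2 fold change of -1.32 with a standard error of 0.39. Gm6421, a pseudogene between Emb and Nnt, was at -0.24 with a standard error of 0.47, and at 0.01 without Ptprz1-/- replicate 1. Within 5 Mb, 1 of 17 tested genes, Emb, did not overlap, beside 7.28% of all genes tested. So 1 such gene among 10 or 17 is near that share, and the lack of overlap alone does not set Emb apart. Emb was also the 1 gene of the 10 with an unadjusted p under 0.05 in edgeR, beside 366 of all 13609. Its log2 fold change ranked 273 from the lowest, and leaving out each library gave -1.69 to -1.04. Over chromosome 13 without the members, 18 of 493 tested genes were lower and 10 higher without overlap, beside 3.73% and 3.55% of all genes. DESeq2 called 2 of the 493, and edgeR called none, with 14 at an unadjusted p under 0.05.

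Genes of the pathways around the members were read from the same fit, in which edgeR called 0 and DESeq2 30 of all 13609 genes, so that few calls or none in a short list match the background. The 18 mitochondrial genes around NNT make or use NADPH or act in peroxide removal and the linked redox and folate steps. All 18 were tested, 0 were called by edgeR or DESeq2, and 0 had an unadjusted p under 0.05. Their log2 fold changes were above 0 in 9 and below 0 in 9, with a median of 0.019, and the largest in size were Prdx5, a peroxide-reducing peroxiredoxin, at -0.50, Mthfd2, a folate enzyme, at 0.46 and Idh2, which makes NADPH from isocitrate, at -0.43. Mthfd2 had 204 reads in Ptprz1+/+ replicate 2, its lowest library, and without that library its log2 fold change was -0.04. All 14 translation initiation genes linked to PAIP1 were tested, none was called by either tool, and 0 had an unadjusted p under 0.05. They ranged from -0.16 for the helicase gene Eif4a1 to 0.21 for Eif3g, with a median of -0.019.

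In the chemokine list around CCL28, 4 of 6 genes were tested and none was called by either tool. In edgeR 1, Ccl27a, had an unadjusted p under 0.05, beside 366 of all 13609 genes. Ccl27a, whose product shares the receptor CCR10 with CCL28, had 91, 85 and 72 reads in Ptprz1+/+ and 120, 115 and 111 in Ptprz1-/-. Its groups did not overlap, beside 3.55% of all genes tested that were higher without overlap. Its log2 fold change was 0.62 with a standard error of 0.20. The receptor gene Ccr10 itself had 7, 18 and 12 reads against 1, 8 and 10, with a log2 fold change of -0.77 and a standard error of 0.75. The scavenging receptor gene Ackr4 had 17, 59 and 7 reads against 10, 9 and 9, a log2 fold change of -1.36 with a standard error of 0.73. Ptprz1+/+ replicate 2 set that value, and without it the log2 fold change was -0.26. The list's median was -0.61.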

How the data were processed

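LMVEC RNA was sequenced in 3 Ptprz1+/+ and 3 Ptprz1-/- isolations, grouped by the genotype and replicate number of the sample labels. Only Ptprz1+/+ and Ptprz1-/- libraries were compared. The authors deposited raw counts of reads per gene, not normalized, and FPKM values, which equal the deposited counts divided by gene length and by the library's total. Mean values per genotype, log2 fold changes and p-values of the authors' own comparison, and 3 lists of called genes, were also deposited and not used. The submitters' processing notes name STAR, HTSeq, TopHat, DESeq2 and edgeR and the builds GRCm38 and mm10, without roles. The annotation release and the handling of strand and of reads with several matches are not given in the sources used here.

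Counts were filtered with filterByExpr, scaled by TMM and fitted in edgeR 4.0.16 (R 4.3.3) by glmQLFit and glmQLFTest. Genotype was the single term, and p-values were adjusted by Benjamini-Hochberg over all genes tested. DESeq2 1.42.0 with its own size factors, upper-quartile scaling, other filters, a replicate block and leaving out each library were alternatives. Standard errors were derived from each gene's log2 fold change and F statistic. Intervals of count ratios are exact binomial at 95%. They pool the reads of each group and cover counting error only, not the spread between isolations. For Gm7120 and Gm21967 they also take each read as counted once, which is not known. Functions were tested on simulated data. Depth was 14496881 to 17709663 counts per library, so that genes such as Gm7120, with 1 to 6 reads in Ptprz1-/-, have wide intervals. P-values set the genotype difference against the variation between isolations, counting error included. Each isolation was a pool of mice, so the spread between single mice is not seen.

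GENCODE M21 holds 98.9% of the gene identifiers, nearly always at an overlapping GRCm38 position. Transcripts were aligned to each other with minimap2 2.31, keeping at least 100 matching bases. The members and lists were chosen with earlier results of these data known. Genes named are the members, the 10 tested genes nearest to Nnt, the 5 genes most and 5 least like Nnt in pattern, up to 3 per list by size of change, Ptprz1 and cell type markers. 3110070M22Rik, Casp4 and Ide were named after their values were seen. Some genes that the rule names are not reported here.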

Additional observations from a re-analysis of the deposited data

How the results depend on the processing

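With 13609 genes tested, edgeR called 0 genes, and 30 were called by DESeq2. Directions of the members were the same in every alternative that gave a value, 11 besides the reported one for Nnt, Paip1 and 4833420G17Rik. Gm7120 and Gm21967 were not tested with a filter of at least 10 counts in every library, since their Ptprz1-/- counts are lower. Leaving out each library in turn gave log2 fold changes from 0.20 to 0.38 for Nnt, -0.25 to -0.16 for Paip1, -1.70 to -1.33 for 4833420G17Rik, -4.45 to -3.19 for Gm7120, -3.88 to -3.19 for Gm21967 and -3.07 to -1.55 for Ccl28, which passed the filter in 4 of these fits. The count of neighbours within 2 Mb whose groups did not overlap, 0 with all libraries, ran from 0 to 2 (2 without Ptprz1+/+ replicate 1 or Ptprz1-/- replicate 3, 1 without Ptprz1+/+ replicate 2 or Ptprz1-/- replicate 1), where fewer libraries are compared, and was 1 within 5 Mb.

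Same-numbered libraries of the genotypes deviated together with correlations of 0.446, -0.0607 and 0.523, so the numbers were not taken as pairing. With the replicate block, 0 genes were called, 690 had an unadjusted p under 0.05, and the log2 fold change of 4833420G17Rik was -1.60. Depth limits Gm7120, Gm21967 and Ccl28, with at most 8 reads in any Ptprz1-/- library.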

Other observations

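Genes known to differ in DNA between SV129 and C57BL/6 lines, or among C57BL/6 substrains, were read in the same way. Of 7 such genes 6 were in the table and 5 were tested, neither edgeR nor DESeq2 called any, and 0 had an unadjusted p under 0.05. Wdfy1 had 1133, 760 and 1092 reads in Ptprz1+/+ and 1196, 1032 and 1080 in Ptprz1-/-. These did not overlap in CPM, beside 7.28% of all genes tested. Its log2 fold change was 0.27 with a standard error of 0.21, and 0.07 without Ptprz1+/+ replicate 2. Mmrn1, which encodes multimerin 1, had 13, 16 and 226 reads against 59, 7 and 50, a log2 fold change of -1.09 with a standard error of 1.27. Its sign rested on Ptprz1+/+ replicate 3, the library with the highest endothelial marker sum, and without it the value was 1.57. Casp4 and Ide were at 0.11 and 0.02, and without Ptprz1+/+ replicate 2 at 0.0065 and -0.25. Levels of these genes do not show which alleles the mice carried, and the alleles at the Nnt locus were not tested.

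The genes whose level followed that of Nnt most closely lay on other chromosomes. Over 13596 tested genes outside the 2 Mb window, high Pearson r with Nnt on log2(CPM + 0.5) across the 6 libraries were those of Abhd10 (0.997), the highest, Gpr3 (0.978), Efcab2 (0.972) and Cygb (0.971). Abhd10, which encodes a mitochondrial hydrolase, had 80, 102 and 74 reads in Ptprz1+/+ and 92, 89 and 86 in Ptprz1-/-. The lowest were Fubp1 (-0.987), Zfp322a (-0.982), Dnajc8 (-0.975) and Nkx3-2 (-0.966). These points share their libraries, genotypes and scaling, and with 6 libraries and so many genes such values are a description of pattern alone.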
